A study of Mus musculus and Sus scrofa with 12 samples.

Results

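H3K4me3, a histone modification found at gene promoters, was compared between the embryonic forelimbs of mouse and pig at the start sites of the same genes. The comparison used every H3K4me3 peak of both species, 37066 of the 258842 peaks that the authors deposited for 3 histone marks, with 18353 from mouse and 18713 from pig. Peaks were read out at 14946 orthologs, taken as coding genes with the same symbol in the RefSeq annotations of mouse (GRCm38) and pig (Sscrofa11.1), letter case ignored. Mouse symbols stand below for both species.

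The mouse list came from 2 samples of wild-type forelimbs at E11.5 and the pig list from 2 samples of wild-type forelimbs at day 23 of gestation. Forelimbs of littermates formed the biological replicates, and the mouse strain and pig breed are not given in the sources used here. Chromatin was fixed with 1% formaldehyde, and libraries were made by ChIPmentation, in which a transposase adds the sequencing adapters while chromatin is held on the antibody, with 1 µg of anti-H3K4me3. Each deposited list is 1 consensus per species with positions only, so no spread between animals could be computed, no difference between the species could be tested, and the depth per sample is unknown. Intervals given with shares are Wilson intervals at 95%, which reflect counting error alone.

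H3K4me3 is laid down around transcription start sites (TSSs) by SET1 and MLL methyltransferase complexes. Their CXXC-domain subunits bind unmethylated CpG-rich DNA, so that CpG islands often carry the mark even where a gene is transcribed little. In the limb bud, mesenchyme below an ectodermal ridge is patterned by hedgehog, FGF, WNT, BMP and retinoid signals, and wide H3K4me3 domains are known at genes that define a cell's identity. The CpG content of the sequence therefore stands beside the calls throughout.

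Upstream sequences of 4 orthologs, read from the RefSeq genomes and given as the 250 bases before the annotated 5′ end with every CG in capitals, show the range of sequences behind the calls. Across all orthologs these 250 bases held a median of 11 CG in mouse (quartiles 4 and 18) and 14 in pig (6 and 24). Lhx2, a LIM homeobox factor of limb outgrowth, was called in both species with wide peaks. Its sequences lie at chr2:38339021-38339270 (plus strand) in GRCm38 and chr1:264900681-264900930 (plus strand) in Sscrofa11.1, and hold 25 and 32 CG.
Lhx2, mouse: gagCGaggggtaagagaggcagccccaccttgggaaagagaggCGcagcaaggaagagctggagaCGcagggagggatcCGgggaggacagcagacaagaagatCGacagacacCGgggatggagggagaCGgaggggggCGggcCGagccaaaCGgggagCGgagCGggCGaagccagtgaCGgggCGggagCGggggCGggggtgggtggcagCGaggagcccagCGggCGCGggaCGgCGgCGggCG
LHX2, pig: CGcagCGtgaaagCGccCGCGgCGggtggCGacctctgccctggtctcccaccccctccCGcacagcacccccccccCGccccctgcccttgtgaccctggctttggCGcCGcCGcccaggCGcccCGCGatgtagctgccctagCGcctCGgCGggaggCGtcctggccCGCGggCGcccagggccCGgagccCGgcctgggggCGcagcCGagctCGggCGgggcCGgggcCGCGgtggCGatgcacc

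Tcf7l1, a repressor of WNT target genes, was called in mouse and not in pig, and was chosen for display after its values were seen. The mouse sequence at chr6:72789046-72789295 (minus strand) holds 29 CG and the pig sequence at chr3:59458989-59459238 (minus strand) holds 7. The annotated gene spans chr6:72626371-72789045 in mouse and a far shorter chr3:59438152-59458988 in pig. The 2 sequences may therefore not be like positions, which was not tested, and their CG counts cannot be read as a difference between matched promoters.
Tcf7l1, mouse: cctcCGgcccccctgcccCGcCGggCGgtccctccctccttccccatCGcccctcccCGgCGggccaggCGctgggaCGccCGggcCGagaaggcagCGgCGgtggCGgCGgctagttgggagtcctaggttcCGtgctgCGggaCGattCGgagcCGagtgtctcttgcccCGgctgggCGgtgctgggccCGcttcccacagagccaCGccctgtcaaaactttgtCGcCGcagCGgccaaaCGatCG
TCF7L1, pig: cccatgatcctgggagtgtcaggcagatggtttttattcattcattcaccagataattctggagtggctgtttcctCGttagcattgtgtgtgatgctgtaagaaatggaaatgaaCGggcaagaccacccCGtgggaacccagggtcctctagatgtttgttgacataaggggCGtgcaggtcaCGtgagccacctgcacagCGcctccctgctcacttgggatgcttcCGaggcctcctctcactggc

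Cacng5, a calcium channel gamma subunit, was called in pig and not in mouse, and was chosen after its values were seen. The mouse sequence at chr11:107915056-107915305 (minus strand) holds 12 CG and the pig sequence at chr12:13288260-13288509 (plus strand) holds 20.
Cacng5, mouse: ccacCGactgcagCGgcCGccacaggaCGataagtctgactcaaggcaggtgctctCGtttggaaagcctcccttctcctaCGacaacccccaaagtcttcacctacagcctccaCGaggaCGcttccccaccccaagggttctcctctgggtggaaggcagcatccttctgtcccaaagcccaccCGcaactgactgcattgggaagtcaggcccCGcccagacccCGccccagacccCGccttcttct
CACNG5, pig: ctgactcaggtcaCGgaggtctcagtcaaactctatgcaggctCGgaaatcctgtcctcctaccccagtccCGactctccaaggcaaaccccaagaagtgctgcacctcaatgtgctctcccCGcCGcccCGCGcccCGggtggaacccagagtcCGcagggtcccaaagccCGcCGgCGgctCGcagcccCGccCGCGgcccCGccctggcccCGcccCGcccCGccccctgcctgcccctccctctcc

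Gata1, the master regulator of red blood cell formation, was called in mouse and not in pig although both sequences are poor in CG, and it too was chosen after its values were seen. The sequences lie at chrX:7976664-7976913 (minus strand) and chrX:42898181-42898430 (plus strand) and hold 3 CG each.
Gata1, mouse: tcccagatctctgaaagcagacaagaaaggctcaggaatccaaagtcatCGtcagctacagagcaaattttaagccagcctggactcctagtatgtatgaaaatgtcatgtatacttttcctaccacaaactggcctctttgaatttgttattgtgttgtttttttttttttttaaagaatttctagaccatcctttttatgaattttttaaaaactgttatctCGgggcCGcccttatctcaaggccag
GATA1, pig: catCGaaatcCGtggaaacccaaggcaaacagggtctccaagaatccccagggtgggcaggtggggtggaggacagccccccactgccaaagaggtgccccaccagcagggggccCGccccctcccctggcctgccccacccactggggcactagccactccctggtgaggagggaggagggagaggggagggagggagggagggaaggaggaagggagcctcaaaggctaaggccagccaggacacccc

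Most orthologs had H3K4me3 in both species. A gene counted as called when a peak lay, with at least 1 bp, no more than 1 kb from an annotated TSS of that gene. By this rule 81.9% of orthologs were called in mouse and 77.9% in pig. Both lists held 11167 orthologs (74.7%), the mouse list alone held 1072 (7.17%), the pig list alone held 471 (3.15%), and 2236 (15.0%) were in neither. Of the 12710 orthologs called in either species, 87.9% were called in both (interval 87.3 to 88.4). Among orthologs called in mouse, 91.2% were also called in pig (90.7 to 91.7), and among those called in pig, 96.0% were also called in mouse (95.6 to 96.3).

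The place of the peaks in the genome was alike in order and unlike in share. Peaks at the TSS of an ortholog made up 66.0% of the mouse list (interval 65.3 to 66.6) and 61.4% of the pig list (60.7 to 62.1). Inside a coding gene but away from any TSS lay 8.77% of mouse peaks and 13.7% of pig peaks, and outside all of these classes lay 10.3% and 14.2%. Peaks at the TSS of a non-coding gene or pseudogene alone made up 6.49% in mouse and 3.29% in pig. RefSeq held 21774 coding genes for mouse and 20661 for pig, and 69.5% of mouse and 60.2% of pig genes called in both species had more than 1 annotated TSS. The part that the unequal annotations played in these shares was not tested.

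CpG content went with the calls in each species. The CpG ratio, observed over expected CpG in the kilobase centred on the gene's 5′ end, was 0.714 (mouse) and 0.757 (pig) in the median of orthologs called in both species, and 0.225 and 0.292 in that of orthologs called in neither. Of mouse orthologs with a ratio under 0.2, 39.2% were called, against 99.5% of those over 0.8. The same bins held 28.3% and 97.5% in pig. At genes called in mouse only, the ratio was 0.467 in the mouse sequence and 0.337 in the pig sequence. At genes called in pig only, the order was the opposite, with 0.295 in mouse and 0.585 in pig. The species with the peak was thus also the species with the higher median CpG ratio at the annotated 5′ end.

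**Figure D1:**
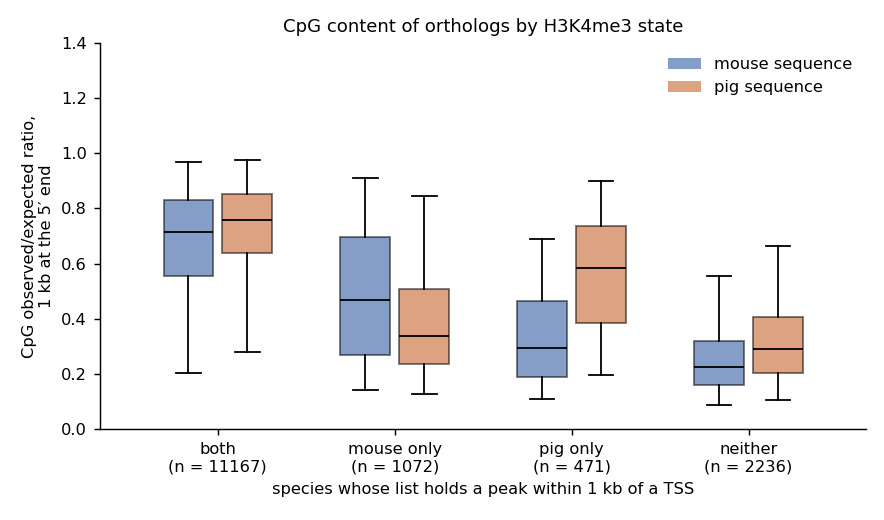
CpG observed over expected ratio (vertical axis, no unit) of the kilobase centred on the annotated 5′ end, for orthologs grouped by the species in which H3K4me3 was called; boxes give the quartiles, lines the medians and whiskers the 5th and 95th percentiles. Medians of orthologs called in 1 species were higher in the sequence of that species, at 0.467 against 0.337 for mouse only and 0.585 against 0.295 for pig only.

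Annotation of the pig start site also differed between mouse-only orthologs and those called in both. Of the 1072 orthologs called in mouse only, 33.6% had more than 1 annotated TSS in pig. That compares with 60.2% of orthologs called in both and 36.7% of those called in neither. A partial pig gene model was annotated for 5.60%, against 0.878% and 2.06%. In mouse, 62.6% of pig-only orthologs had more than 1 annotated TSS, against 69.5% of those called in both and 54.3% in neither. A CpG-rich window had a ratio of at least 0.6 and at least 50% GC. It lay within 5 kb of the pig 5′ end in 51.2% of the mouse-only orthologs. The share was 92.3% for those called in both and 27.2% for those called in neither. Of the 471 orthologs called in pig only, 28.2% had such a window in mouse, against 84.7% and 11.4%. The nearest pig peak lay 1 to 2.5 kb from a TSS at 189 mouse-only orthologs, 2.5 to 10 kb at 306, 10 to 50 kb at 333 and over 50 kb at 244. For the pig-only orthologs the nearest mouse peak lay at 33, 147, 160 and 131 in the same ranges. Within 6293 orthologs with at least 2 annotated TSSs in each species and no partial model, an alternative chosen after seeing the data, 277 were called in mouse only and 180 in pig only, and 92.1% of those called in either species were called in both. How far a misplaced start site enters the 1-species calls was not tested.

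The 1 kb limit passes between genes with nearly equal distances. The genes named here were taken only among orthologs called in the other species. In pig the last such genes inside the limit were Ccdc105, Ahnak, Smg8, Pou3f3 and Tns2, with the peak at 0.972 to 0.989 kb from a TSS. Just outside lay Cby3, Gsx2, Pax1, the WNT receptor Fzd9 and Nlgn3 at 1.002 to 1.023 kb. A mouse call was a condition for naming these 5, and their mouse peaks had 3384 to 4140 bp. In mouse, Agrp, Hoxb8, Oscar and Adamts4 were among the genes just inside at 0.892 to 0.989 kb, and Actl10, Nat14, Trim66, Cldnd2 and Mrgbp were outside at 1.02 to 1.416 kb.

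Across functional classes of genes, the order of the calls was similar in the 2 species. Of 59 classes, 26 exceeded the share of all orthologs in both lists, 25 in neither, 7 in mouse only and 1 in pig only. Spearman's rho between the mouse and pig percent called was 0.886 over the 59 classes, a description with no p because classes share genes and the sequences are related. A larger share was called in mouse for 44 classes and in pig for 10, and 5 were equal. Those numbers stand beside the higher share of all orthologs called in mouse. The percent called of a class also rose with its median CpG ratio, with rho of 0.657 in mouse and 0.748 in pig, and the median CpG ratios of the classes had rho of 0.920 between the species.

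**Figure D2:**
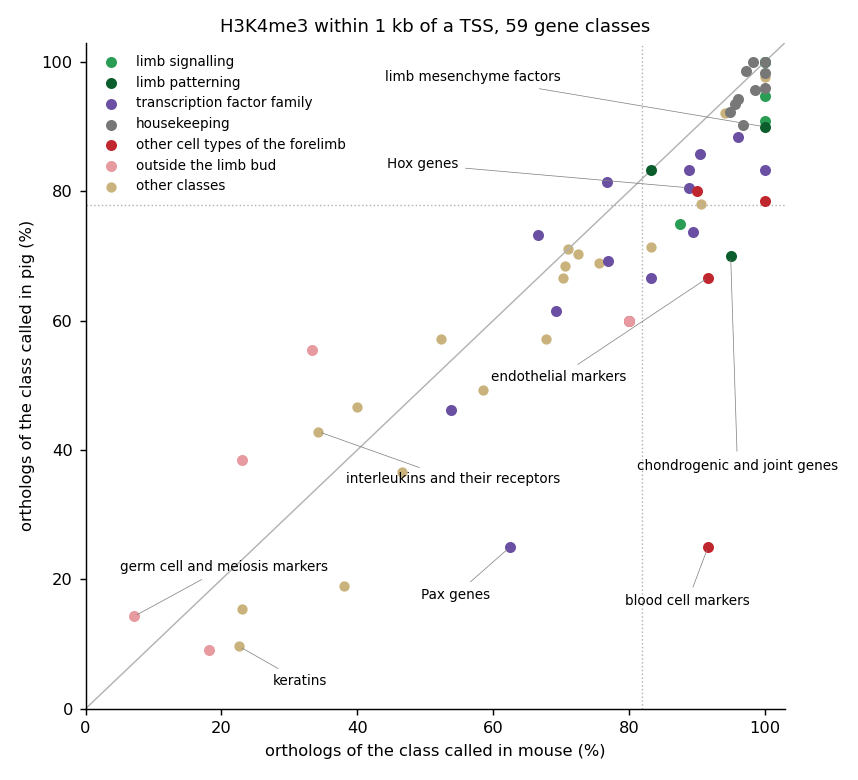
Percent of the orthologs of each of 59 gene classes with an H3K4me3 peak within 1 kb of a TSS in mouse (horizontal axis) and pig (vertical axis); each point is a class, coloured by its group, the diagonal marks equal shares and dotted lines mark all orthologs. Most points lie near or below the diagonal, and blood cell markers lie farthest below it, at 91.7% in mouse and 25.0% in pig.

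The limb signalling genes were called nearly throughout. The hedgehog pathway, 14 orthologs from the ligand Shh through the receptor Ptch1 and the transducer Smo to the Gli factors, was called at 14 of 14 in each species. Genes that make, carry, degrade or bind retinoic acid were called at 12 of the 12 matched in each, while Cyp26b1, which clears retinoic acid from the distal limb, and Rarg matched no ortholog by symbol and were not analysed here. Of 19 BMP pathway genes, 19 were called in mouse and 18 in pig, and of 22 WNT pathway genes, 22 and 20. Of 16 FGF pathway genes, 14 were called in mouse and 12 in pig. Counts for a class are read against the 81.9% and 77.9% of all orthologs, and an interval around 12 of 16 (50.5% to 89.8%) contains the latter.

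The pig list lacked a peak within 1 kb at 5 of 83 limb signalling genes that the mouse list held, beside 7.17% of all orthologs called in mouse only. That count is thus no excess over all orthologs. Fgf10, the mesenchymal ligand that starts limb outgrowth, had a mouse peak of 4875 bp at its TSS, and the nearest pig peak lay at 1.69 kb. Fgfr2, whose epithelial isoform receives Fgf10, had a mouse peak of 5107 bp and a pig peak at 1.66 kb. A partial pig gene model was annotated for 1 of these 2 FGF pathway genes. Smad6, an intracellular inhibitor of BMP signalling, had 5162 bp in mouse and a pig peak at 2.68 kb. Fzd1, a WNT receptor, had 4558 bp and 2.47 kb. These 4 had pig peaks summing to between 2856 and 5414 bp within 5 kb of their TSSs, so a 5 kb window would call them in pig. Their CpG ratios at the annotated 5′ end were lower in pig. They were 0.186 against 0.532 in mouse for Fgf10, 0.481 against 0.570 for Fgfr2, 0.132 against 0.862 for Smad6 and 0.288 against 0.894 for Fzd1. Whether their pig start sites match the mouse ones was not tested. Tcf7l1 alone of the 5 had no pig peak within 5 kb, with a mouse peak of 3687 bp and the nearest pig peak 26.5 kb away. Its annotated gene is far shorter in pig than in mouse, as given with the sequences above. Whether the annotated pig start site matches the mouse one was not tested, so this missing call may also depend on the annotation. In neither species were the ridge ligands Fgf4 and Fgf17 called, although the 250 bases upstream of Fgf4 held 21 CG in mouse and 36 in pig.

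Of 56 limb patterning genes, 96.4% were called in mouse and 82.1% in pig. All 30 limb mesenchyme factors of the list were called in mouse and 27 in pig. Where a peak had to cover the TSS itself, the order of the species turned, with 76.7% called in mouse and 80.0% in pig. Prrx1, a homeobox factor of limb mesenchyme, had a mouse peak of 7907 bp and a pig peak 1.08 kb from its TSS, just past the limit. Alx4, which restrains anterior Shh expression, had 5536 bp in mouse and no pig peak within 29.4 kb, and Hand1 had 3934 bp and none within 28.9 kb. The annotated Alx4 gene is shorter in pig (chr2:18070726-18085685) than in mouse (chr2:93642434-93681341). Whether its pig start site is misplaced was not tested. H3K27ac, a mark of active promoters and enhancers, was called within 1 kb of a TSS of all 3 genes in mouse and of none of them in pig. It was called at 52.1% of all orthologs in mouse and 55.6% in pig, and over all orthologs with H3K4me3 in mouse only at 36.3% and 9.89%. Tbx5, the factor that starts the forelimb, was called for both marks in both species. The hindlimb selectors Pitx1, Tbx4 and Isl1 were also called for H3K4me3 in both, while H3K27ac was called at 0 of the 6 hindlimb selectors in either species, against the same 52.1% and 55.6% (Tbx5, Tbx4 and Isl1 were picked for their role after their values were seen).

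Genes of cartilage and joint had the largest gap in percent called among the limb lists, with 19 of 20 called in mouse and 14 of 20 in pig. The intervals, 76.4% to 99.1% and 48.1% to 85.5%, contain the 81.9% and 77.9% of all orthologs. Called in mouse only were 6 and in pig only 1, beside 7.17% and 3.15% of all orthologs. The cartilage regulators Sox9, Sox5 and Sox6 and the collagen genes Col2a1, Col9a1 and Col11a1 were called in both. Runx2, the regulator of hypertrophy and bone, had a mouse peak of 5013 bp and its nearest pig peak at 53.5 kb, and Runx3 had 3694 bp and 65.8 kb. Barx1, a homeobox gene of joints, had 4479 bp and 32.5 kb. The matrix genes Comp, Matn1 and Col11a2 had pig peaks at 2.63, 3.58 and 6.76 kb. Ihh, the hedgehog ligand of growing cartilage, was the reverse case, with a pig peak of 805 bp and its nearest mouse peak 94.1 kb away. In bulk tissue, fewer cells of a type and less of the mark per cell cannot be told apart, and stage and read length at sequencing cannot be told apart from species here.

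Markers of other cells in the forelimb were called in mouse more often than in pig, most of all those of blood. Of 12 blood cell markers, 11 were called in mouse (91.7%, interval 64.6 to 98.5) and 3 in pig (25.0%, 8.89 to 53.2). Genes of the red cell lineage called in mouse only were Gata1 with a peak of 3332 bp, Klf1 with 3181 bp and the heme synthesis gene Alas2 with 3918 bp. Of the white cell lineage they were Spi1 with 2568 bp, Csf1r with 2391 bp and Ptprc, which encodes CD45, with 2012 bp. Runx1, needed for the first blood stem cells, had 5565 bp, and Itga2b of megakaryocytes had 4185 bp. The nearest pig peak lay over 10 kb away at 7 of these 8 genes and at 4.97 kb for Klf1. Tal1, Nfe2 and Epor were called in both, with 1357, 325 and 2195 bp in pig (Nfe2 and Epor were named after their values were seen). Pig blood markers were also poor in CpG, with a median ratio of 0.276 against 0.702 for all pig orthologs, and the mouse value was 0.223 against 0.641. H3K27ac was called at 3 of the 12 in mouse and 0 in pig, beside 52.1% and 55.6% of all orthologs. With only the wider 50% of the peaks of each list, 50.0% of the 12 markers were called in mouse and 8.33% in pig, and with a window of 5 kb 91.7% and 33.3%.

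Of 12 endothelial markers, 11 were called in mouse and 8 in pig. Pecam1, Cdh5 and Tek, which encode the junction proteins CD31 and VE-cadherin and the receptor TIE2, were called in mouse only, with pig peaks at 83.6, 66.5 and 121 kb. The pig gene model was partial for 1 of these 3, so its pig distance is less sure. The receptors Kdr, Flt1 and Tie1 were called in both. With the wider 50% of peaks the order turned for endothelial markers, at 50.0% in mouse and 58.3% in pig. Ectoderm markers were called at 14 of 14 and 11 of 14, with En1, Grhl3 and Krt5 in mouse only. Muscle precursor markers had 9 of 10 and 8 of 10: Myog and Pax7 were called in mouse only and Myf6 in pig only. Where the peak had to cover the TSS, muscle precursor markers turned to 60.0% and 70.0%. Of 10 neural crest and glia markers, 8 were called in mouse and 6 in pig, and Sox10 was among those called in mouse only. In all, 18 of these 58 orthologs were called in mouse only and 1 in pig only, beside 7.17% and 3.15% of all orthologs. At 13 of the 18 the nearest pig peak lay over 10 kb away, and 7 of the 18 had a CpG-rich window within 5 kb in pig. The share of blood, vessel or skin in the dissected limbs was not measured, and its part in these counts was not tested.

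Markers of tissues outside the limb bud were mostly uncalled in both species. Of 11 liver markers 2 were called in mouse and 1 in pig, of 14 germ cell and meiosis markers 1 and 2, and of 9 heart markers 3 and 5. Neuron markers were called at 8 of 10 and 6 of 10. The group as a whole had 29.8% called in mouse and 33.3% in pig, below all orthologs in each. Interleukins and their receptors leaned to pig, with 24 of 70 called in mouse and 30 in pig. Of the 70, 11 were called in pig only and 5 in mouse only, beside 3.15% and 7.17% of all orthologs. But with the wider 50% of peaks the shares were 21.4% in mouse and 17.1% in pig. Keratins had 7 of 31 and 3 of 31, and claudins, which seal epithelia, 11 and 12 of 21.

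Of 36 Hox genes, some of which order the limb from shoulder to digit, 32 were called in mouse and 29 in pig. The intervals, 74.7% to 95.6% and 65.0% to 90.2%, contain the 81.9% and 77.9% of all orthologs. In mouse only 7 were called and in pig only 4, beside 7.17% and 3.15% of all orthologs. Of the 7 called in mouse only, Hoxb3, Hoxb5, Hoxb6, Hoxc11, Hoxd3 and Hoxd11 had a pig peak 1 to 2.5 kb from a TSS, and Hoxc12 had its nearest at 11.6 kb. With a window of 2.5 kb the pig share rose from 80.6% to 97.2%. Hoxa7, Hoxa9, Hoxb13 and Hoxc9 were called in pig only, with mouse peaks at 3.94, 1.42, 57.1 and 3.58 kb. Where a peak had to cover the TSS itself, 63.9% of Hox genes were called in each species. Genes in these clusters are closely spaced, so the assignment of a peak to a Hox gene is uncertain. Of 8 Pax genes the mouse list held 5 and the pig list 2, with Pax3 and Pax9 in both and Pax1, Pax2 and Pax7 in mouse only.

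Housekeeping classes were called at nearly every gene in both species. Of 540 such orthologs, 98.0% were called in mouse and 96.3% in pig. Spliceosome components were called at 35 of 35 in each, mitochondrial ribosomal proteins at 76 and 73 of 76, and cytosolic ribosomal proteins at 73 and 74 of 75. Polycomb and histone methylation regulators had 43 of 43 and 42 of 43. Of 42 collagens, 35 were called in mouse and 30 in pig, and with the wider 50% of peaks 47.6% and 54.8%. Col3a1, a fibrillar collagen of connective tissue, was among the 7 collagens called in mouse only, with a peak of 3531 bp and its nearest pig peak 201 kb away, and it was singled out after its values were seen.

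The widest 1-species peaks without a counterpart within 10 kb formed lists with few limb genes. In mouse these were Tfap2e (7057 bp), Fam166b (6706 bp), Tbx1 (6528 bp), Tlx3 (5895 bp), Fat1 (5872 bp), Lrig3 (5716 bp), F2rl3 (5715 bp), Btbd17 (5612 bp), Runx1 and Alx4. Fat1, an atypical cadherin, had its nearest pig peak at 13.4 kb, and Lrig3 at 151 kb. Tlx3 and Tfap2e were rich in CpG in both genomes, with ratios of 0.965 and 0.734 in mouse and 0.933 and 0.864 in pig. In pig they were Degs2 (3085 bp), Galntl5 (3072 bp), Ncf4 (2995 bp), Foxb1 (2951 bp), Ly6g5c (2909 bp), Ush1g (2851 bp), Cacng5 (2807 bp), Avp (2780 bp), Cd8a (2770 bp) and Asprv1 (2757 bp). The pig peak of 5 of these 10, Degs2, Galntl5, Ncf4, Ush1g and Asprv1, also lay within 1 kb of a TSS of another coding gene, and the annotated gene of 4 of the 10 was over 4 times as long in pig as in mouse. Those peaks cannot be assigned to 1 gene. None of the 10 mouse peaks was shared in this way. The limit on the shorter pig gene model of Alx4, given above, holds here too. Cacng5 had a CpG ratio of 0.748 in pig against 0.536 in mouse. Foxb1, a forkhead factor of the neural tube, had 0.787 and 0.718.

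Pig peaks were narrower than mouse peaks at almost every ortholog called in both. Taking the widest peak at the TSSs of each gene, the median was 3537 bp (mouse) and 1949 bp (pig), at a median ratio of pig to mouse of 0.557 (quartiles 0.453 and 0.680). The pig peak was wider at 237 of 11167 orthologs (2.12%). At 8484 orthologs whose 5′ end lay inside a peak in both species, the peak reached 1008 bp upstream and 2467 bp downstream in mouse and 606 and 1249 bp in pig. The downstream side was longer at 86.4% of these orthologs in mouse and 82.7% in pig. The ratio of pig to mouse had a median of 0.624 upstream and 0.527 downstream. Mouse libraries were read at 100 bp and cropped to 50 bp while pig H3K4me3 libraries were read at 50 bp, and the part of this or of unequal depth in the widths was not tested. For that reason widths are compared below as percentile ranks among the orthologs called in the same species.

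**Figure D3:**
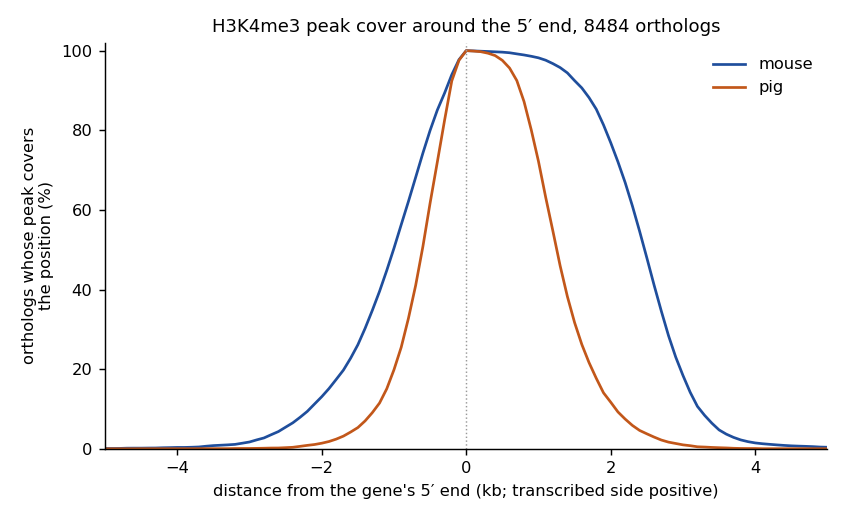
Percent of 8484 orthologs, called in both species with the 5′ end inside the peak, whose H3K4me3 peak covers each position from 5 kb upstream to 5 kb downstream of the annotated 5′ end (horizontal axis in kb, transcribed side positive). Both curves lean to the transcribed side, and the pig curve falls off earlier on both sides, with median reaches of 606 and 1249 bp against 1008 and 2467 bp in mouse.

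Ranks of width were related weakly between the species over single genes. Spearman's rho was 0.320 over the 11167 orthologs, given as a description, since genes share peaks, sequence composition and libraries. It was 0.323 where no other coding gene shared the peak, 0.364 where H3K27ac was called in both species and 0.269 where it was called in neither. The width rank had rho of 0.209 with the CpG ratio in mouse and 0.170 in pig. When the lengths of all peaks within 5 kb of the TSSs were summed, rho between the species was 0.390. Of the 1223 orthologs in the widest 10% of mouse, 306 (25.0%) were also in the widest 10% of pig, which is 26.3% of the 1164 pig orthologs there. Narrow mouse peaks were also called less often in pig: 82.4% of the narrowest 10% against 91.1% of the widest and 94.0% of the sixth bin of 10. In the pig ranking, 86.6% of the narrowest and 98.5% of the widest 10% were called in mouse.

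**Figure D4:**
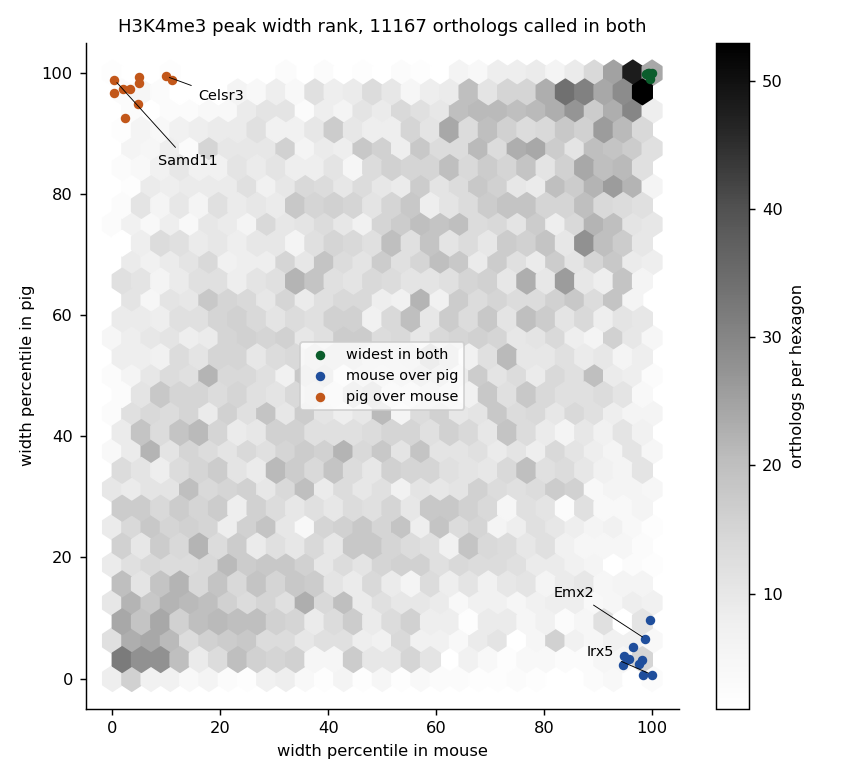
Width percentile of the H3K4me3 peak in mouse (horizontal axis) and pig (vertical axis) for 11167 orthologs called in both, shown as the number of orthologs per hexagon, with the 10 widest in both and the 10 of largest difference in each direction as coloured points. Orthologs spread over the whole square with more of them in the corners of low and of high ranks, and rho over all 11167 is 0.320.

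The genes widest in both species were led by Prdm16, a zinc finger regulator of transcription, with 9730 bp in mouse and 4758 bp in pig. Lhx2 had 6910 and 4635 bp, and the orphan nuclear receptor Nr2f2 had 6364 and 4938 bp. Nrp2, a receptor for semaphorins and VEGF, had 6193 and 5443 bp. The other 6 were the collagen receptor Ddr1, the protocadherins Pcdh17 and Pcdh7, the RNA-binding proteins Igf2bp1 and Mex3b, and Ptma. The lowest ranks among the 10 were percentile 98.9 in mouse, for Mex3b, and 99.1 in pig, for Pcdh7. Prdm16 lies at chr4:154316122-154637360 in GRCm38 and chr6:64704181-65012580 in Sscrofa11.1.

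Width ranks were also compared over gene classes. Over the 49 classes with at least 5 orthologs called in both, rho of the median percentile was 0.692, and 32 classes lay above percentile 50 in both species. Medians were higher in pig for 30 classes and in mouse for 19. A rho over medians averages many genes and is not comparable in size with the rho over genes. Summed lengths within 5 kb gave 0.784, and the range over all other settings was 0.503 to 0.726.

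**Figure D5:**
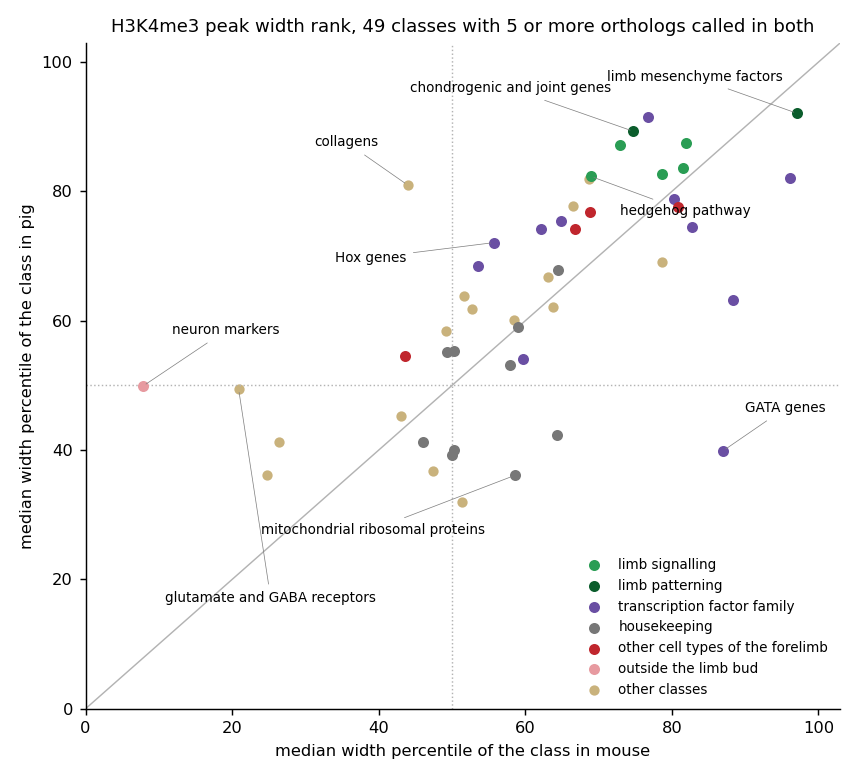
Median width percentile of the H3K4me3 peaks of each of 49 gene classes in mouse (horizontal axis) and pig (vertical axis), among orthologs called in the same species; each point is a class, coloured by its group, the diagonal marks equal ranks and dotted lines mark percentile 50. Limb mesenchyme factors lie highest on both axes together, at 97.1 and 92.1, while GATA genes and collagens lie far from the diagonal on opposite sides.

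By the widest peak, limb mesenchyme factors ranked highest of the 49 classes in each species. Their median percentile was 97.1 in mouse and 92.1 in pig, and 18 and 14 of the 27 called in both lay in the widest 10%. Tbx15, a T-box factor of limb mesenchyme, was among the few genes whose widest peak was wider in pig, with 5184 bp in mouse and 5742 bp in pig. Summed within 5 kb, the order turned, with 10753 bp in mouse and 6903 bp in pig. Twist2 had 5242 and 4023 bp and Osr1 6224 and 3404 bp. Shox2, a regulator of the proximal limb, had 7131 bp at percentile 99.7 in mouse and 2374 bp at percentile 75.1 in pig, and Hand2, which precedes Shh in the posterior limb, had 5520 bp at 98.1 and 1820 bp at 41.8. The last 4 genes were named for their role after their values were seen. More than 1 peak lay within 5 kb at 25.9% of these 27 genes in mouse and 59.3% in pig, against 12.3% and 15.9% of all orthologs called in both. With summed lengths the medians of the class were 89.7 in mouse and 94.6 in pig, and T-box genes (95.4 and 96.9) then ranked above them in both, as did Hox genes (92.1) in mouse. The order of the species thus turned with the measure, and it turned for the widest peak too. The medians were 78.2 in mouse and 89.8 in pig where the peak had to cover the TSS, 83.0 and 91.3 with only the 5′ end of the gene, and 97.0 and 97.4 with peaks under 1 kb apart joined.

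Signalling classes ranked high in both species. The hedgehog pathway had a median percentile of 68.9 in mouse and 82.3 in pig, which turned to 80.9 and 70.1 among orthologs with 2 or more TSSs and no partial model. Gli3 had 5224 bp at percentile 97.2 in mouse and 3512 bp at 97.7 in pig. Shh itself, expressed in a small posterior zone, had 4354 bp at 88.1 and 4288 bp at 99.7 without an H3K27ac call at its TSS in either species, and Ptch1, its receptor and target, had 3351 bp at 39.4 and 3715 bp at 98.6 (both named after their values were seen). Disp1, which releases the ligand, had the largest difference of the pathway in the other direction, at 84.9 and 21.3. In the BMP pathway, with medians of 78.6 and 82.7, Bmp4 had 5475 and 4202 bp while Bmp5 had 3977 and 671 bp. Wnt5a, the ligand of limb elongation, had 10748 bp at percentile 99.99 and 3518 bp at 97.7 in a pathway with medians of 72.9 and 87.2. FGF pathway medians were 81.6 and 83.5, led by the feedback inhibitor Spry2 with 6018 and 3122 bp. Retinoid genes had 81.9 and 87.5, or 91.0 and 33.7 with only the 5′ end of the gene, where Crabp2, a retinoic acid carrier, had 4986 and 3830 bp.

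Among orthologs called in both species, cartilage genes and collagens ranked higher in pig. Over 13 chondrogenic and joint genes the median percentile was 74.8 in mouse against 89.3 in pig. These medians leave out 6 genes called in mouse only and 1 in pig only. In mouse, Runx2 (percentile 96.2), Comp (96.1) and Barx1 (90.6) of the 6 ranked high. Matn1 (62.7) and Runx3 (60.5) lay nearer the middle and Col11a2 (6.68) low. Ihh, the pig-only gene, had percentile 0.778 in pig. Sox9, the master regulator of cartilage, was in the widest 10% of both, with 5384 and 4205 bp. Col11a1, a collagen of cartilage fibrils, had 2783 bp at percentile 11.9 in mouse and 2983 bp at 92.2 in pig, the largest difference in the class. Collagens as a class had 44.0 and 81.0 over 28 orthologs, and 39.0 and 74.0 with summed lengths. A further 7 collagens called in mouse only and 2 called in pig only are not in these medians. Pig ranked higher under all 12 alternatives that gave a value for the chondrogenic and joint genes and all 13 for collagens. Each alternative again took only orthologs called in both species. The fibrillar Col1a1 had 3835 bp at 68.4 and 2966 bp at 91.9, and Col5a1 had 3106 bp at 25.6 and 3054 bp at 93.2, both named after their values were seen. Semaphorins, plexins, ephrins and Eph receptors, guidance molecules, had 68.7 and 81.9.

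Other classes had the higher rank in mouse. Mitochondrial ribosomal proteins had medians of 58.6 and 36.1, and spliceosome components 64.3 and 42.3. Over all orthologs called in both, medians were 76.9 and 62.4 where another coding gene shared the peak in both species. They were 45.7 and 48.2 where the peak was shared in neither. The part of shared peaks in these class differences was not tested. GATA genes had 86.9 and 39.9 over 5 orthologs, but 77.1 and 91.4 with summed lengths. Gata3 shows the split, with a widest pig peak of 1539 bp and 4687 bp in all within 5 kb. LIM homeobox genes had 88.4 and 63.3, and 81.1 and 55.7 with summed lengths. Cytosolic ribosomal proteins lay near the middle of both, at 50.3 and 55.3. Glutamate and GABA receptors, genes of synapses, were low in mouse at 20.9 and near the middle in pig at 49.5 over 29 orthologs, and neuron markers had 7.85 and 49.9 over 5.

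Hox genes were ranked very differently by other measures of width. Their median percentile by the widest peak was 55.8 in mouse and 72.1 in pig, and by summed length 92.1 and 91.3. Hoxa13, a gene of the hand and foot, had 2124 bp in mouse and 3463 bp in pig as its widest peak, and 6609 and 3463 bp summed. Hoxd12 had 2436 and 3167 bp, and 7444 and 3167 bp summed. Hoxa10 had 2751 and 3790 bp, and 8073 and 8659 bp summed, and Hoxa11 went the other way with 5322 and 1005 bp, and 5322 and 3986 bp summed. These 4 genes were among the 20 with the largest difference of rank in either direction, and in mouse 4 and in pig 2 of the called Hox genes shared their widest peak with another Hox gene.

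Among the genes with the largest difference of rank in favour of mouse, Irx5 stood first. This Iroquois factor of the limb had 9146 bp at percentile 99.9 in mouse and a widest pig peak of 761 bp at 0.640, but pig peaks summed to 3711 bp within 5 kb. The tumour suppressor Rassf1 had 5615 and 726 bp with 3251 bp summed in pig, and Emx2, a homeobox gene of the shoulder blade, had 5836 and 1203 bp with 4814 bp summed. For Cnn1, Sez6, Tmem106a and Wwp2 the pig sum within 5 kb equalled the widest pig peak, at 1053, 997, 1088 and 1285 bp. The remaining 2 besides Hoxa11 were Slc17a7 and Ptpn21. In favour of pig stood Samd11 with 1415 and 3799 bp and Klhl34 with 1315 and 3384 bp, both with a single peak in each species. Esrp1, a splicing regulator of epithelia and an ectoderm marker here, had 2451 and 4036 bp, and Celsr3, a cadherin of planar polarity, had 2710 and 4099 bp. Rcn3, Ttyh2 and Rab3a completed the list with Hoxa13, Hoxd12 and Hoxa10.

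The X chromosome ranked lower in mouse. Over 378 orthologs on X in both species and called in both, the median percentile was 27.1 in mouse and 44.2 in pig, against 51.9 and 51.2 for autosomal orthologs. The percent called was 79.5 and 76.4 on X and 82.0 and 77.9 on autosomes. Median widths on X were 3134 bp in mouse and 1851 bp in pig, against 3552 and 1952 bp on autosomes.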

How the data were processed

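H3K4me3 was measured by ChIPmentation in 4 of the 12 samples, 2 per species. The authors deposited peak positions (chromosome, start and end, with no score) as 1 consensus list per species and mark. Per the series' design text, reads were aligned to GRCm38 or Sscrofa11.1 and broad peaks were called at an irreproducible discovery rate below 0.01. The submitters' processing notes name Bowtie2 2.3.5 as a tool, next to Trimmomatic 0.39, FastQC 0.11.9, deepTools 3.5 and SAMtools 1.9, but a peak caller was not given in the sources used here. A consensus favours peaks strong enough to recur in both replicates, so a missing peak can mean a weak one.

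Peaks were placed on RefSeq TSSs of all annotated transcripts of the same assemblies with Python 3.11.15, numpy 2.4.6 and pandas 2.3.3. The width of a gene was that of its widest peak within 1 kb of a TSS, ranked as a mid-rank percentile among orthologs called in that species. Intervals came from scipy 1.17.1. Calls, widths and rank correlations were first tested on simulated peaks with known answers. The 59 gene classes and the named genes were chosen with earlier results of these data known; 7 listed names matched no ortholog, and some named genes are not reported here. Genes were named by rules: class members called in 1 species for limb and other forelimb cell types, the widest in both, the largest rank differences overall and per class, the widest 1-species peaks over 10 kb from a counterpart, and those nearest the 1 kb limit. The last rule took only genes called in the other species. Alternatives changed the window, the transcripts, the peaks and the measure of width.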

Additional observations from a re-analysis of the deposited data

How the results depend on the processing

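Each deposited list pools its samples, so leaving out a replicate was not possible. No paired analysis was possible because each list is 1 consensus over replicates and holds no value per sample. Of orthologs called in either species, the share called in both was 87.1% with a window of 0.5 kb, 88.7% with 2.5 kb and 89.5% with 5 kb. It was 81.1% when only the 5′ end of the gene counted, where 947 orthologs were called in pig only, 86.3% with curated transcripts, and 85.4% when the peak had to cover the TSS. With only the wider 50% of each list the share was 53.8%, with 2294 orthologs in mouse only and 2403 in pig only, the rank correlation of width was 0.221 over genes and 0.503 over classes. In that setting the excess of mouse-only over pig-only orthologs was gone. The correlation over genes was 0.339 with peaks under 1 kb apart joined and 0.390 with summed lengths. Orthologs with 2 or more TSSs in each species and no partial model, chosen after seeing the data, gave 92.1%, with 277 in mouse only and 180 in pig only out of 6293. The cause of these shifts was not tested. Between 18 and 28 classes exceeded all orthologs in both species under every setting run. Of the class values, the percent called moved outside its main interval most often with the wider 50% of peaks, at 64 of 118 values. Unknown depth limits every missing call: a gene without a peak may carry H3K4me3 below what the lists hold.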
